A study of Homo sapiens with 4 samples.

Results

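The myeloid growth factor receptors described here are 8 genes: FLT3, KIT, CSF1R, CSF3R, CSF2RA, CSF2RB, IL3RA and EPOR. They were taken by name from an Agilent whole genome array and make up 8 of its 30811 gene or transcript names and 12 of its 41000 probes. Their RNA was measured in NB4, an established human cell line of acute promyelocytic leukaemia (APL), a leukaemia of granulocyte precursors that carry the PML-RARA fusion. Naive NB4, grown in 2 flasks, was compared with an arsenic trioxide (ATO) resistant NB4 line, also in 2 flasks, to see which genes differ between cells that respond to the drug and cells that no longer do. The labels call the resistant line NB4-VM-AsR1. The study's methods name a resistant clone NB4-EV-AsR1, which was kept free of ATO for a week before the RNA was taken, and that both names mean the same clone is assumed here. Neither line received any other agent, and both grew in RPMI medium with fetal bovine serum.

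Growth factor receptors carry signals for survival, division and maturation from secreted cytokines into blood cells. FLT3, KIT and CSF1R are receptor tyrosine kinases of the same class, in which the ligand joins a pair of receptors that then phosphorylate each other. The other members belong to the cytokine receptor family, have no kinase of their own and signal through JAK kinases, mostly JAK2, to STAT5, RAS and PI3K. CSF3R and EPOR work as pairs of a single chain, whereas CSF2RA and IL3RA are the alpha chains that recognise GM-CSF and IL-3 and share CSF2RB as their beta chain.

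All values are log2 signals relative to the 75th percentile of the array, so a value of 0 lies at that percentile. Probes differ in binding strength, and levels were therefore compared between arrays and not between probes. The summed signals of marker lists given below add up different probes and follow the brightest of them. A probe was tested where both arrays of a line, or of both lines, showed it well above background by Agilent's own criterion, and it was called changed at a limma adjusted p below 0.05 together with a change of at least 2-fold. On each array between 27922 and 28244 of the 41000 probes were well above background, and between 457 and 565 were saturated. With 2 flasks per line an exact two-sided permutation test cannot give a p below 0.333, so each p below comes from limma, which pools the spread over 28221 probes. All 4 arrays lay on 1 slide, the naive flasks in its first positions and the resistant flasks in its last, so position and line cannot be told apart. The naive flasks differed more from each other (SD of the log2 differences over probes, 0.71) than the resistant flasks did (0.37). In RNA from whole flasks, fewer cells with a transcript and less of it per cell cannot be told apart.

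Of the 12 receptor probes, 11 passed the background criterion on each of the 4 arrays and were tested, and 2 were called, both for IL3RA and both lower in the resistant line. Over the whole array 5.27% of the tested probes were called, 2.3% higher and 2.97% lower in the resistant line. At an unadjusted p below 0.05 there were 7 of the 11 receptor probes, 3 higher and 4 lower, beside 19.1% of all tested probes (9.3% higher and 9.77% lower). The values of the lines did not overlap for all 11 tested probes, 5 lower and 6 higher in the resistant line, beside 52.5% of all tested probes (28% lower and 24.5% higher).

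**Figure D1:**
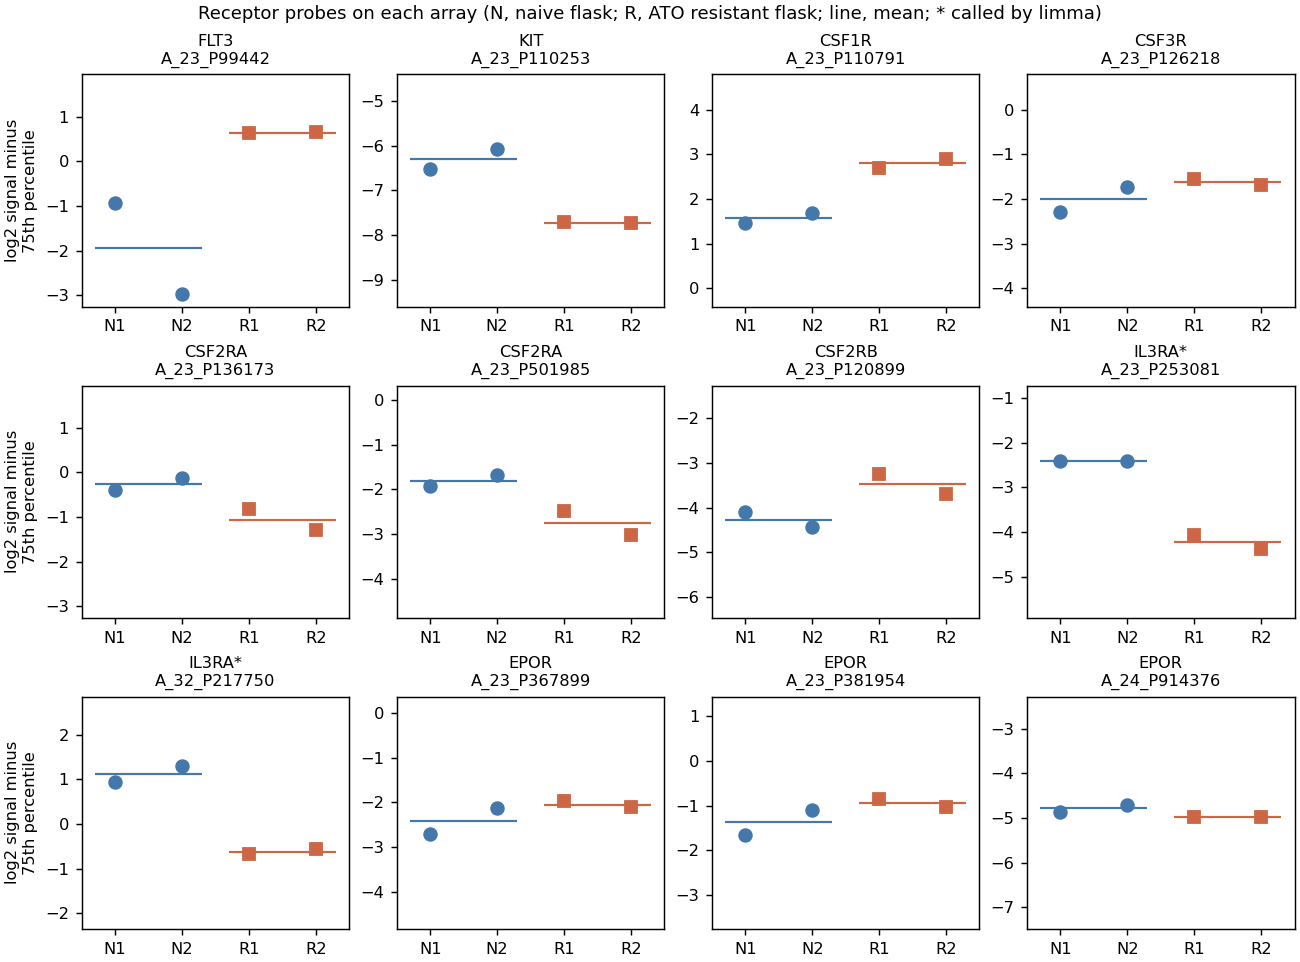
Log2 signal relative to the 75th percentile for each of the 12 receptor probes, by array (circles, naive flasks N1 and N2; squares, resistant flasks R1 and R2; lines, means of the line; each panel spans the same number of log2 units). Both IL3RA probes, marked with an asterisk, dropped in both resistant flasks, and the FLT3 panel has the widest gap between the naive flasks, from -0.93 to -2.98.

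IL3RA (CD123), the alpha chain of the IL-3 receptor and a surface antigen of many myeloid leukaemias, was the 1 receptor gene whose change passed the test, and its probes fell by similar amounts. Probe A_32_P217750 read 0.94 and 1.31 in the naive flasks and -0.68 and -0.56 in the resistant flasks. Both resistant flasks lay below both naive flasks by at least 1.49, whereas the naive flasks were 0.38 apart. The change was -1.74 (SE 0.25), a 3.35-fold lower level in the resistant line, with a limma adjusted p of 0.021. Probe A_23_P253081 read -2.42 and -2.41 in the naive flasks and -4.07 and -4.39 in the resistant flasks. Here the naive flasks coincided, and the change was -1.82 (SE 0.24), or 3.52-fold lower, with an adjusted p of 0.0153. The probes share a gene and are not independent measurements of the line. Neither remained called when either resistant flask was left out (adjusted p from 0.1 to 0.195, the lone flask being assumed to vary like the others) or after normexp background correction, where the changes were -0.64 and -1.55 (adjusted p = 1 and 0.824).

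**Figure D2:**
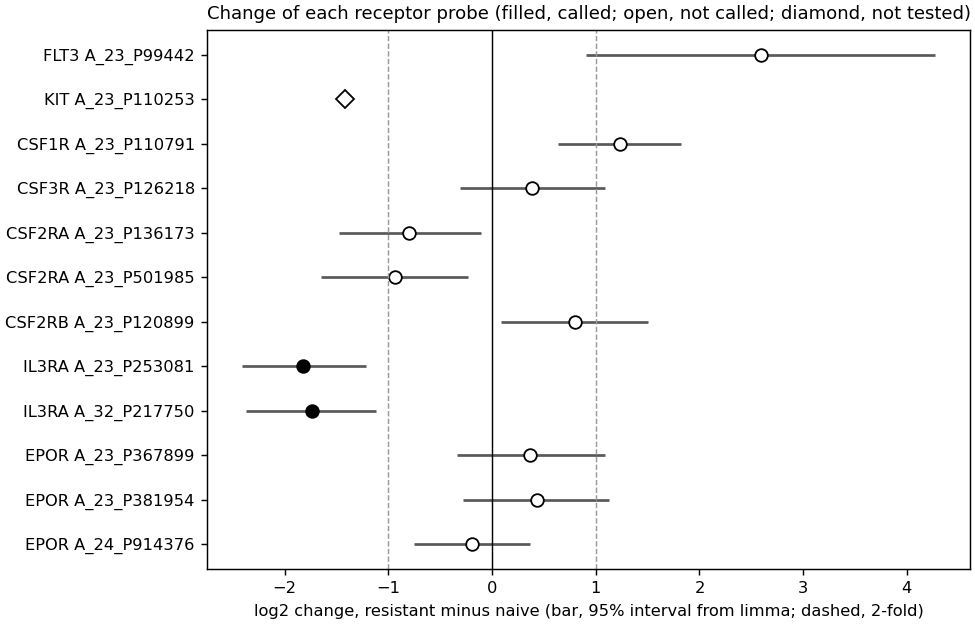
Log2 change (resistant minus naive) of each receptor probe with its 95% interval from limma; filled points were called, open circles were not, and the diamond for KIT was not tested. The IL3RA intervals, -2.41 to -1.22 and -2.37 to -1.12, lie wholly past the dashed 2-fold line, whereas the FLT3 interval spans 0.91 to 4.27.

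CSF2RA, which binds GM-CSF, lies next to IL3RA in the pseudoautosomal region at the end of the short arms of X and Y, and it also read lower in the resistant line by both of its probes without passing the test. Probe A_23_P136173 read -0.39 and -0.13 in the naive flasks and -0.83 and -1.29 in the resistant flasks. Probe A_23_P501985 read -1.93 and -1.69 against -2.48 and -3.02. On both probes the resistant flasks were the lower, and the second resistant flask was the lowest of all. The changes were -0.8 (95% interval -1.48 to -0.11, adjusted p = 0.204) and -0.94 (-1.65 to -0.23, adjusted p = 0.159). Of 18 alternatives the second probe passed in 1, which left out the first naive flask (-1.06, adjusted p = 0.0455). Without a resistant flask its adjusted p was 0.409 or 0.986.

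The probe sequences are shown for the alpha chains CSF2RA and IL3RA, which hold the called gene and its neighbour, and for CSF3R of the same family. Capitals in the first CSF2RA probe mark the 15 bases that encode the WSXWS box, the membrane-near signature of the cytokine receptor family, so this probe reads the extracellular part. The file header places none of the CSF2RA probes and not the first IL3RA probe on the genome, and the CSF3R probe on chr1:36932246-36932305 of the minus strand of hg19.
CSF2RA A_23_P136173: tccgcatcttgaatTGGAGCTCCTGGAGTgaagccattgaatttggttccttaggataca
CSF2RA A_23_P501985: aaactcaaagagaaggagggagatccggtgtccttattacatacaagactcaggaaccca
IL3RA A_23_P253081: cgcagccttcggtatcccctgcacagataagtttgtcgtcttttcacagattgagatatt
CSF3R A_23_P126218: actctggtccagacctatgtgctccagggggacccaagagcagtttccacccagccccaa

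The other IL3RA probe, A_32_P217750, is placed on the plus strand of hg19 at chrY:1451487-1451546, where X and Y carry the same sequence. Because the alpha chain genes neighbour each other there, the remaining genes of the region were listed, a step taken after the IL3RA values had been seen. In the RefSeq order of GRCh38.p14 the region holds 17 genes, of which 16 had a probe and 14 were tested. Among the 11 others with values on all arrays, 0 were called by limma, beside 5.46% of all tested genes. With DHRSX, which lacks a value on 1 array, these genes had 16 tested probes, of which 3 had an unadjusted p below 0.05, close to the 19.1% of all tested probes. By each gene's brightest probe, the median log2 change of the 11 was -0.26, 8 lay below 0 and 3 above, and 7 were lower in the resistant line without overlap, beside 28% of all tested probes. CRLF2, on the other side of CSF2RA, changed by -0.41 (adjusted p = 0.477), SLC25A6, next to IL3RA, by -0.77 (adjusted p = 0.269) and ASMT by 2.69 (adjusted p = 0.123). By the brightest probe SLC25A6 had the lowest change of the 11 and ASMT the highest, the latter from a naive level above background in 1 flask only, and the second probe of GTPBP6 read -0.84, beside the -1.74 and -1.82 of the IL3RA probes.

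CSF2RB, the beta chain through which the GM-CSF, IL-3 and IL-5 receptors signal, read higher where its IL-3 and GM-CSF partners read lower. Its probe, at chr22:37334598-37334657 on the plus strand, gave -4.1 and -4.43 in the naive flasks and -3.24 and -3.7 in the resistant flasks. The resistant flasks were the higher, but the gap between the lines was about as wide as that between the resistant flasks. The change of 0.8 (95% interval 0.09 to 1.5) did not pass the test (adjusted p = 0.214). IL5RA, the third alpha chain of the family, read higher in the resistant line. It gave -8.55 and -7.48 in the naive flasks, not well above background in either, and -5.26 and -5.48 in the resistant flasks. Its log2 change of 2.64 (SE 0.4, adjusted p = 0.0259) rests on a naive level under background. The probe entered the test through the resistant flasks alone and was not testable where all 4 arrays had to show it, so its call cannot be told apart from that filter. Against the lowest signal measured above background the resistant level was at least 1.85-fold higher. The 2.64 shrank to 0.47 and 0.42 (adjusted p = 1 and 0.42) after the normexp corrections.

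Since IL-3 receptors also mark basophils and plasmacytoid dendritic cells, markers of other blood cells were read on the same arrays. Of 4 mast cell and basophil genes, all 4 were well above background in both naive flasks and 3 in both resistant flasks, and their summed signal, in multiples of the 75th percentile, was 14.8 and 19.2 in the naive and 1.58 and 1.87 in the resistant flasks. This sum follows its brightest probe, for HDC, the enzyme that makes histamine. HDC read 3.87, 4.24, 0.54 and 0.83 (log2 change -3.37, adjusted p = 0.00303) and was the 1 gene of the list that was called. TPSAB1 (mast cell tryptase) was above background in the naive flasks only, through which it entered the test, and was at least 4-fold lower in the resistant flasks (adjusted p = 0.137). CPA3 changed by -0.31 (adjusted p = 0.517) and MS4A2, the beta chain of the IgE receptor, by -0.38 (adjusted p = 0.685). The part of this list in the IL3RA result was not tested. Of the 4 dendritic cell markers only IL3RA itself was above background, and the probes of CLEC4C, CD1C and FCER1A were not well above background on any array. The promyelocyte list, which checks the labels, had 8 of 9 genes above background in both naive and 9 of 9 in both resistant flasks. MPO (myeloperoxidase) read 5.96, 6.2, 5.98 and 6.29, and CD34, a marker of earlier progenitors, was not above background on any array. Within the list AZU1 (azurocidin; 1.17, adjusted p = 0.0472) rose, and ANPEP (CD13) fell by 1.83 on the log2 scale (adjusted p = 0.0112). ELANE (neutrophil elastase) was also called higher (2.49, adjusted p = 0.0169), but it was above background in 1 of the naive flasks. It entered the test through the resistant flasks alone, so its call cannot be told apart from that filter. T cell genes of the lymphocyte list stood apart too. CD3D and CD3G were above background in the naive flasks only, through which they entered the test. CD3D read 0.7 and 1.16 there and was not above background in the resistant ones (at least 169-fold lower, adjusted p = 0.000755), CD3G was at least 2.19-fold lower (adjusted p = 0.011) and CD3E changed by -0.01 (adjusted p = 0.984). The summed signal of the 6 lymphocyte genes was 3.07, 3.41, 1.56 and 1.66. The megakaryocyte list moved in no common direction: ITGA2B fell by 2.4 on the log2 scale (adjusted p = 0.0318), GP9 changed by 0.47, PF4 by 0.11 and GP1BA by -0.34, and the summed signal was 1.33, 2, 1.71 and 1.75. Of its 6 genes 1 was called, and of the stem cell and stromal lists 0 genes were called. Over all tested genes 5.46% were called. The part of these lists in the receptor values was not tested.

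FLT3, the receptor tyrosine kinase of early progenitors and a common site of activating mutations in acute myeloid leukaemia, had the widest difference between the lines and also the widest spread within one. Its probe, at chr13:28577993-28578051 on the minus strand, read -0.93 and -2.98 in the naive flasks and 0.63 and 0.65 in the resistant flasks. The resistant flasks coincided and lay above both naive flasks, but the naive flasks were 2.04 apart, a difference larger than that of 98.4% of the tested probes. The change of 2.59 (SE 0.66, 95% interval 0.91 to 4.27), or 6.03-fold, did not pass the test (adjusted p = 0.114). Without the first naive flask the change was 3.61 (adjusted p = 0.000132) and without the second 1.57 (adjusted p = 0.00336), with the spread of FLT3 then taken from the resistant flasks alone, which were 0.02 apart. Without a resistant flask the change was 2.6 or 2.58 (adjusted p = 0.278 and 0.305). It passed after scale normalization (2.7, adjusted p = 0.0152) and after a normexp correction with bright local backgrounds reset (2.32, adjusted p = 0.0268).

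CSF1R, the receptor of macrophage colony-stimulating factor and a gene of the monocyte line, read higher in both resistant flasks and narrowly missed the threshold. Its probe, at chr5:149432861-149432920 on the minus strand, read 1.47 and 1.68 in the naive flasks and 2.7 and 2.9 in the resistant flasks. The flasks of each line agreed closely and the lines did not overlap. The change was 1.23 (SE 0.23, 95% interval 0.64 to 1.82), or 2.34-fold, with an adjusted p of 0.0519. CSF1R passed with an intensity trend in limma (1.23, adjusted p = 0.0252), and under 7 of 18 alternatives in all. Among the 7 were the fits without the first (1.12) or the second naive flask (1.33), with the spread of CSF1R then taken from the resistant flasks alone. The methods' t-test without adjustment was also among them. With adjustment CSF1R did not pass that t-test (adjusted p = 0.235). Without a resistant flask its adjusted p was 0.341 or 0.536. Of 5 monocyte and macrophage markers 2 were above background in both lines and 0 were called by limma, beside 5.46% of all tested genes. CD14 changed by -0.5 (adjusted p = 0.3). CD163, FCGR3A and MSR1 were not above background on any array.

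**Figure D3:**
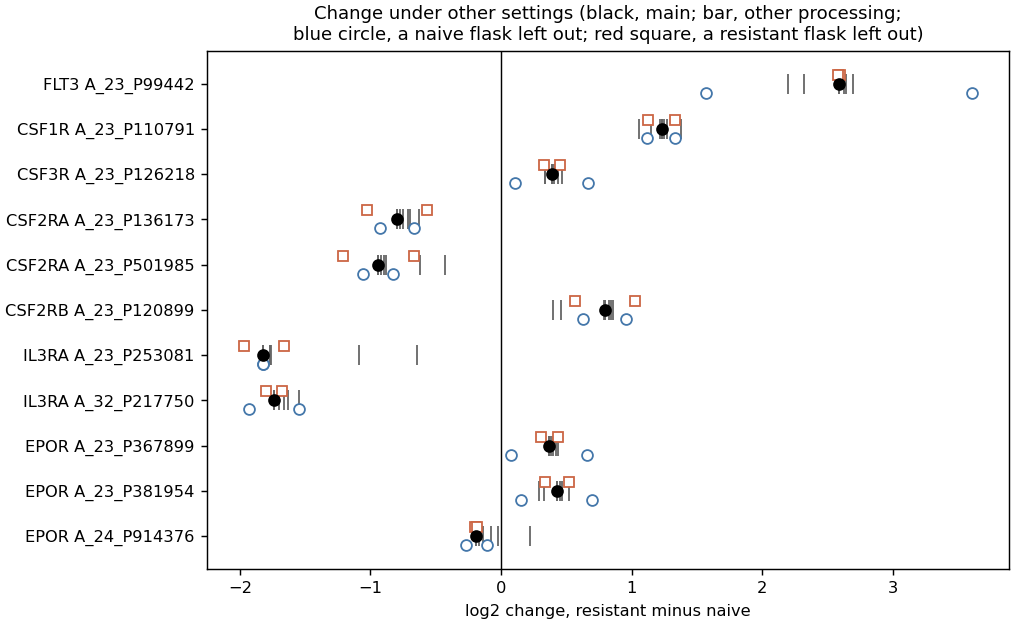
Log2 change (resistant minus naive) of the 11 tested receptor probes: black points, the reported value; bars, other background corrections, normalizations, filters and fits; blue circles, a naive flask left out; red squares, a resistant flask left out. FLT3 moved between 1.57 and 3.61 with the naive flask left out, CSF1R between 1.06 and 1.38 over all settings, and the lower EPOR probe crossed 0 to 0.22.

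KIT, the stem cell factor receptor of progenitors and mast cells, lay at the limit of detection. Its single probe, at chr4:55606511-55606570 on the plus strand, is printed 10 times on each array, which gives a spread between spots. In the naive flasks the spots averaged -6.51 and -6.08, and in the resistant flasks -7.7 and -7.73. The spots well above background numbered 2 and 6 of 10 in the naive flasks, against 0 of 10 and 0 of the 9 kept in the resistant flasks. The spot left out of the second resistant array as an outlier read -5.97 and was well above background. Naive spots ranged from -7 to -6.01 and from -6.75 to -5.75, and resistant spots from -8.63 to -6.98 and from -8.58 to -7.15. The means of the lines did not overlap, although the lowest spot of the first naive array lay just below the highest spot of the first resistant array. The spots of an array are 1 sample. KIT was well above background in the second naive flask only, so it was not among the tested probes. With dim probes kept the difference of -1.42 had an adjusted p of 0.0856, and it rests on levels at or under background.

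**Figure D4:**
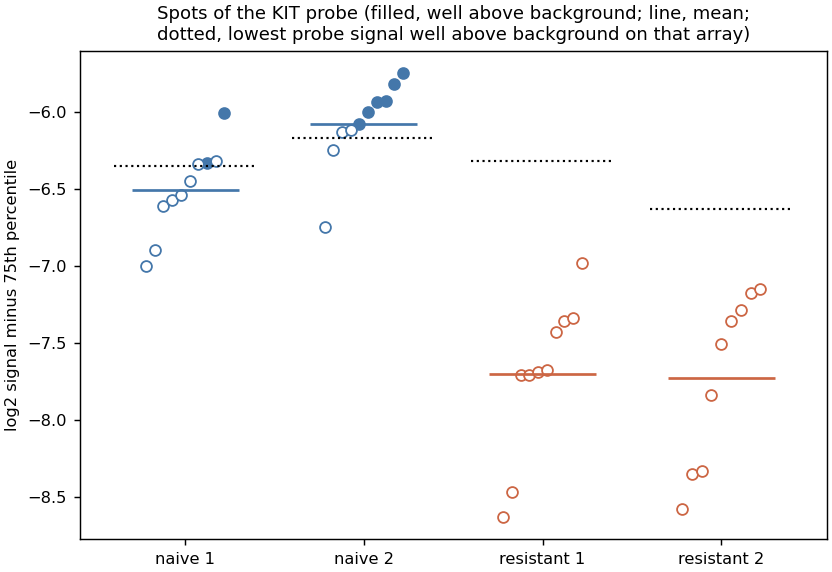
Log2 signal relative to the 75th percentile of each spot of the KIT probe on each array (filled, well above background; open, not; solid line, mean; dotted line, the lowest signal of any probe well above background on that array). The naive means of -6.51 and -6.08 lie near the dotted lines at -6.35 and -6.17, and every resistant spot drawn lies below its dotted line.

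CSF3R, the G-CSF receptor of granulocytes and their precursors, and EPOR, the erythropoietin receptor of red cell precursors, differed little. CSF3R read -2.29 and -1.73 in the naive flasks and -1.56 and -1.68 in the resistant flasks. The first naive flask was the lowest of the 4, and the change of 0.39 (95% interval -0.31 to 1.09) did not pass the test (adjusted p = 0.503). Of 3 EPOR probes on the minus strand of chromosome 19, A_23_P367899 (chr19:11488607-11488666) read -2.71, -2.13, -1.98 and -2.11, a change of 0.37 (-0.34 to 1.09, adjusted p = 0.53). A_23_P381954 (chr19:11488476-11488535) read -1.65, -1.1, -0.86 and -1.04, a change of 0.43 (-0.28 to 1.13, adjusted p = 0.464). These neighbouring probes shared a low first naive flask, as CSF3R did. The third, A_24_P914376, which was designed on a different transcript (chr19:11491946-11492383), read -4.87, -4.7, -4.97 and -4.98, a change of -0.19 (-0.75 to 0.37, adjusted p = 0.691). The intervals leave room for changes of about 2-fold upward in CSF3R and the first EPOR probes. Of 12 erythroid markers 6 were above background in both naive and 6 in both resistant flasks, and 0 were called, beside 5.46% of all tested genes. HBB, HBG1 and AHSP were not above background on any array.

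The promoters are shown for IL3RA and its neighbour CSF2RA and for CSF1R, the receptors that lie closest to the threshold on either side or share a region, with the letters that myeloid transcription factors are known to bind. The 250 bases before the RefSeq start site were searched on both strands. The letters for PU.1 were GAGGAA, which 23.6% of 35093 promoters of the same length hold. Those for C/EBP factors were TTGCNNAA, held by 9.05%. Those for GATA factors were AGATAA and, as a second form, TGATAA, held by 14.6%, and those for RUNX factors were TGTGGT, held by 11%. No letters of one motif lie within another here, and a match describes the sequence and does not show a site in use. Capitals mark the matches, and all are from GRCh38.p14. A start site was listed for 7 of the 8 receptor genes.
IL3RA chrX:1336535-1336784, plus strand: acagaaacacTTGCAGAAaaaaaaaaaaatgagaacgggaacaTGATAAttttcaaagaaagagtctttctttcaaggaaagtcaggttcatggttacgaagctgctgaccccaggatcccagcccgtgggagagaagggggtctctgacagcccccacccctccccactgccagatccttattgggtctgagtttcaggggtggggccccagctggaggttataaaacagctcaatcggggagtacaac
CSF2RA chrX:1268564-1268813, plus strand: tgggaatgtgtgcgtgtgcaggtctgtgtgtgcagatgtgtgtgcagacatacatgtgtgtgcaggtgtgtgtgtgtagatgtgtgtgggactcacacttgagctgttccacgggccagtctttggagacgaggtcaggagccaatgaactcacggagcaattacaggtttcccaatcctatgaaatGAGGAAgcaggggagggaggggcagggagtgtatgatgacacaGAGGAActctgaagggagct
CSF1R chr5:150086555-150086804, minus strand: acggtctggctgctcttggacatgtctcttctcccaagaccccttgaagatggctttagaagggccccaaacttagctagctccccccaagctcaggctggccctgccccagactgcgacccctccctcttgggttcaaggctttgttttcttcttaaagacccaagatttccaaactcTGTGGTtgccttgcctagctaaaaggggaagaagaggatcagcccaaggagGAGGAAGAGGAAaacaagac
The IL3RA promoter held 1 C/EBP match and 1 GATA match, and CSF2RA held 2 PU.1 matches. The CSF1R promoter, at the downstream of its 2 listed starts, held 1 RUNX match and 2 PU.1 matches side by side, 20 and 14 bases before the start. FLT3 held 1 PU.1 match, CSF3R 1 PU.1 match at one start and 1 C/EBP match at the other, and EPOR 1 GATA match, while these letters were not in the KIT window.

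Among 18 transcription factors known to act on receptor genes, 1 passed the test and fell, GATA2, a factor of progenitors, mast cells and basophils. GATA2 read -0.18 and 0.21 in the naive flasks and -1.45 and -1.56 in the resistant flasks, a change of -1.52 (SE 0.25, adjusted p = 0.0328), and both of its probes were called. The call was lost with the replicate block (adjusted p = 0.0548), after normexp (1), with dim probes kept (0.0694) and without either resistant flask (0.237 and 0.308). The median change of the 18 was 0.08, beside -0.01 over 21063 genes tested, of which 5.46% were called. The factors whose letters were searched were read as well, outside the rule for named genes. SPI1 (PU.1) changed by -0.08, CEBPA by 0.02, CEBPB by 0.04, CEBPE by -0.62, RUNX1 by 0.64 and GATA1 by 0.82, with adjusted p from 0.244 to 0.978. MEIS1, a partner of HOX proteins, changed by 1.37 (adjusted p = 0.0638), GFI1B, a repressor of the erythroid and megakaryocyte lines, by -1.24 (adjusted p = 0.0587) and KLF1, an erythroid factor, by 1.02 (adjusted p = 0.118).

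The ligands of the receptors were mostly beyond detection. KITLG, CSF3 (G-CSF), CSF2 (GM-CSF), IL3 and EPO were not well above background on any array by any of their probes and were not tested. Of the 3 tested ligands 0 were called by limma (5.46% of all tested genes were) or by the methods' t-test. Of the 3, 1 had an unadjusted limma p below 0.05 (beside 19.1% of all tested probes), and the median change was -0.33. FLT3LG, the ligand of FLT3, read -4.86 and -4.25 in the naive and -5.53 and -5.31 in the resistant flasks, a change of -0.86 (adjusted p = 0.204). CSF1 and IL34, both ligands of CSF1R, changed by -0.33 (adjusted p = 0.465) and 0.18 (adjusted p = 0.896).

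Of 20 other hematopoietic cytokine receptors and receptor kinases 15 were tested, and 1 was called, IL5RA, which entered the test only through the resistant flasks at the values given beside CSF2RB. Over all genes 5.46% were called. At an unadjusted p below 0.05 there were 4 of the 15, all higher, beside 9.3% of all tested probes higher and 9.77% lower. The median change of the 15 was 0.5. TGFBR2, a receptor of the growth inhibitor TGF-beta, changed by 1.17 (adjusted p = 0.0503), IL6R by 0.81 (adjusted p = 0.348) and PDGFRB by 0.8 (adjusted p = 0.257). IL5RA and PDGFRB are among the 4. PDGFRB was above background in 1 of the naive flasks and entered the test through the resistant flasks.

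**Figure D5:**
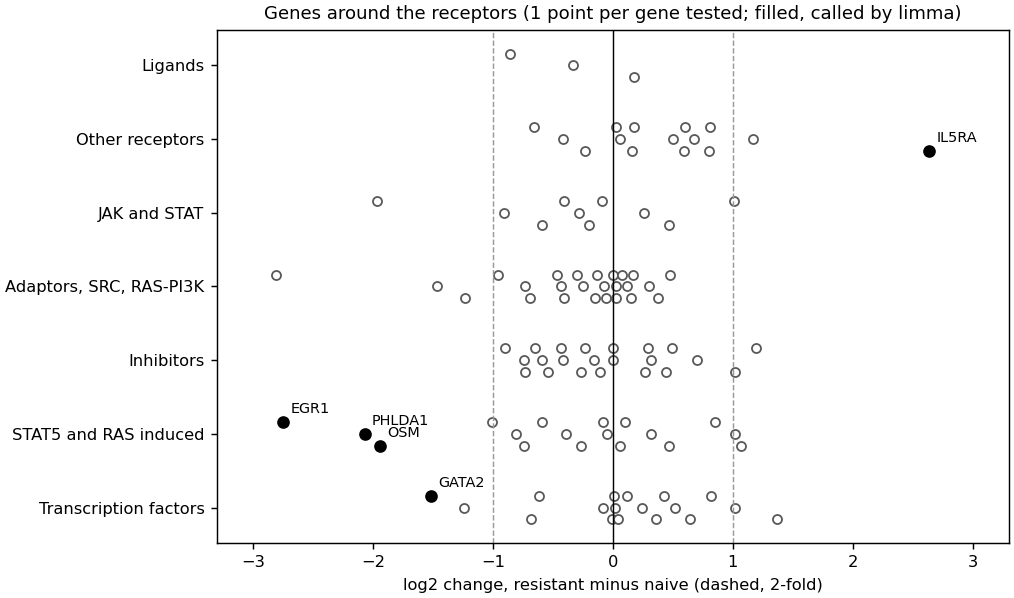
Log2 change (resistant minus naive) of each tested gene with a value on all arrays in 7 lists of genes around the receptors, by its brightest probe; filled points, named, were called. IL5RA is the 1 called gene above 0, at 2.64, and EGR1, PHLDA1, OSM and GATA2 lie between -2.75 and -1.52.

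Downstream of the receptors, 0 of 10 tested JAK and STAT genes were called by limma, beside 5.46% of all tested genes. Of the 10, 3 had an unadjusted limma p below 0.05 (19.1% of all tested probes did), and their median change was -0.24. By the methods' t-test without adjustment 1 passed at 2-fold, beside 1833 of the 28221 tested probes. JAK2, the main kinase of these receptors, changed by 1.01 (adjusted p = 0.0742), STAT5A by -0.91 (adjusted p = 0.114) and STAT3 by -0.59 (adjusted p = 0.353). Of 25 tested adaptors, SRC-family kinases and RAS and PI3K genes 0 were called by limma, and 1 passed the unadjusted t-test at 2-fold, beside the same shares. At an unadjusted limma p below 0.05 there were 5, all lower. That is 5 of 25 lower, beside 9.77% of all tested probes lower and 9.3% higher. The median change of the 25 was -0.13. The SRC-family kinase FGR changed by -1.47 (adjusted p = 0.123), SYK, a kinase that SRC-family members activate, by -1.23 (adjusted p = 0.0751) and PIK3CD, the catalytic PI3K subunit of leukocytes, by -0.96 (adjusted p = 0.0865). Of 23 inhibitors of receptor signalling 0 were called by limma, beside 5.46% of all tested genes, and 7 had an unadjusted p below 0.05 (3 higher, 4 lower). Of all tested probes 19.1% did (9.3% higher and 9.77% lower). By the unadjusted t-test at 2-fold 2 inhibitors passed, beside 1833 of the 28221 tested probes. The median change of the inhibitors was -0.11, without PTPN2, which lacked a value on 1 array. DOK2, an adaptor that restrains RAS, changed by 1.19 (adjusted p = 0.0844), SOCS2 by 1.02 (adjusted p = 0.109), SH2B3 (LNK), which holds back JAK2, by -0.9 (adjusted p = 0.112) and the ERK phosphatase DUSP6 by -0.74 (adjusted p = 0.366).

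Of 19 genes that STAT5 or RAS signals are known to induce, 3 fell and 0 rose by the test, beside 5.46% of all genes called (2.49% higher and 2.98% lower). At an unadjusted p below 0.05 there were 9, 3 higher and 6 lower, beside 19.1% of all tested probes (9.3% higher and 9.77% lower). The median change of the list was -0.08. MCL1 lacked a value on 1 array and is not in the median. The list shares SOCS2, DUSP6, CISH and SPRY2 with the inhibitors, which these pathways induce. EGR1, an immediate early gene of the ERK pathway, read 1.51 and 2.93 in the naive flasks and -0.56 and -0.49 in the resistant flasks, a change of -2.75 (SE 0.49, adjusted p = 0.0425). PHLDA1 read -2.4 and -3.23 in the naive and -5.04 and -4.73 in the resistant flasks, a change of -2.07 (SE 0.35, adjusted p = 0.0361), with all 3 of its tested probes called, and after normexp it was -0.47 (adjusted p = 1). OSM (oncostatin M), a STAT5 target in blood cells, read 1.08 and 0.51 against -1.17 and -1.12, a change of -1.94 (SE 0.28, adjusted p = 0.0215). For these 3 genes the resistant flasks lay close together and below both naive flasks. ID1, at 1.07 (adjusted p = 0.233), had the highest change of the list and did not pass. The calls of EGR1, PHLDA1, OSM, GATA2 and IL5RA were lost when either resistant flask was left out (adjusted p from 0.0733 to 0.308).

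Finally, the genes whose pattern over the 4 arrays lay closest to that of IL3RA were sought, by the root mean square difference from probe A_32_P217750 after each probe's own mean was subtracted. Among 12604 genes that no array showed near background or saturated, the closest was OSCP1 (difference 0.00679, change -1.74), followed by PRXL2B (0.0368, change -1.71) and CCL20 (0.0498, change -1.67). With 4 arrays, the likeness is a description of these flasks.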

How the data were processed

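Per the labels, total RNA of each flask was labelled and hybridised to a 1-colour Agilent array. The authors extracted the images with Agilent Feature Extraction (10.5.1.1 per the file headers) and deposited its processed signal, a background-subtracted intensity on a linear scale, with the mean spot and median local background intensities. Their second deposit, log2 values with the 75th percentile set to 0 on each array, served as an alternative. The receptor genes and all lists were chosen with earlier results of these data known.

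Processed signals were taken to log2 in R 4.3.3, control spots and outlier spots were left out, each array's 75th percentile was subtracted and the spots of a probe were averaged. A probe counted as well above background on an array where at least 50% of its spots were. The resistant line was set against the naive line in limma 3.58.1 (lmFit, eBayes) over 28221 tested probes with Benjamini-Hochberg adjustment, and the 95% intervals come from the same fit. Genes of the lists are given by their brightest probe. Current symbols came from RefSeq accessions for 26222 probes, and probe positions from the file header (hg19). The position of probes relative to exons was not analysed here. The code was tested on simulated data. Named genes were all receptors and their ligands, called list members, up to 4 members per list with the largest change, and the 3 genes most like a called receptor. Some list members that this rule takes are not reported here. Flasks are separate cultures per the study's methods. The limma p-values weigh a difference against the spread between flasks, pooled over probes. They do not cover variation between separately derived resistant lines, since a single resistant line was studied. Arrays have no read depth, and their number limits the precision.

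The alternatives were normexp background correction (offset 50, also with local backgrounds above 100 reset), scale or quantile normalization, centring on the median, filters that kept dim probes or dropped saturated ones, the deposited log2 table, an intensity trend and robust eBayes in limma, the methods' t-test, other thresholds, the mean over the probes of a gene, the replicate number as a block, and each flask left out.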

Additional observations from a re-analysis of the deposited data

How the results depend on the processing

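Over all tested probes 1487 were called, and the count became 0 after normexp background correction (929 at an unadjusted p), 760 when each of the 4 arrays had to show the probe above background, 0 by the methods' t-test with adjusted p-values (4138 unadjusted), 3463 at 2-fold with no test, and 728 to 4536 with a flask left out. The 2 called receptor probes became 0 after normexp (3 unadjusted), 4 with bright local backgrounds reset, 4 after scale normalization, 0 by the adjusted t-test (3 unadjusted), 4 at 2-fold with no test, and 0 to 5 with a flask left out. Calls were gained without a naive flask (3733 and 4536 probes, 5 and 4 of them receptor probes) and lost without a resistant flask (743 and 728, 0 receptor probes). Of 198 receptor values under 18 alternatives, 177 stayed on the same side of 0 and of the threshold, 8 were no longer called, 12 became called and 1 reversed, EPOR probe A_24_P914376 at 0.22 after normexp, and the causes were not tested. Normexp moved the median change of all probes by 0.15 and scale normalization by 0.1. Flasks with the same number deviated together only weakly (correlation 0.119, too few pairs to show a pairing). With the replicate block 1375 probes and 2 receptor probes were called, and GATA2 lost its call (adjusted p = 0.0548). EGR1, PHLDA1, OSM, GATA2 and IL5RA were also not called after normexp (adjusted p from 0.679 to 1), where their changes were -2.6, -0.47, -1.54, -1.14 and 0.47 (PHLDA1 was called at -1.07 with bright local backgrounds reset), or with dim probes kept (0.0521 to 0.0949), nor EGR1 and PHLDA1 after quantile normalization (0.0805 and 0.0797). A block for the slide was not run, since there was 1 slide. Over all alternatives the genes called ranged from 0 to 1 among ligands, 0 to 4 among other receptors, 0 to 2 among JAK and STAT genes, 0 to 4 among adaptors, 0 to 3 among inhibitors, 0 to 6 among induced genes and 0 to 4 among transcription factors.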
